A study of Mus musculus with 6 samples.

Results

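The response of mouse microglia to 24 h of lipopolysaccharide (LPS) was measured by comparing the 2 arrays of cells given LPS for 24 h with the 2 arrays of cells given phosphate-buffered saline (PBS) for 24 h, that is 4 of the 6 arrays of the series, chosen by their titles. The Ntg pair came from C57BL/6 mice and the LRRK2KO pair from B6.129X1(FVB)-Lrrk2tm1.1Cai/J mice, in which the gene of leucine-rich repeat kinase 2 is disrupted, so the disrupted gene and any other difference between these strains cannot be told apart. All animals were at postnatal day 3, the source was brain, the labels give no dose of LPS, and every combination of genotype and treatment had 1 Illumina beadchip. The other 2 arrays hold cells given LPS for 6 h and gave no value to the difference itself. They entered the shared estimate of the spread, the normalization, the detection filter and the choice of probe. By the probe used, 35 of the tested genes were detected on none of the 4 arrays compared. Nothing in the labels assigns the arrays to separate cultures or litters, and the p-values cover the variation among these arrays alone, part or all of which may be technical. Because these are bulk RNA samples, fewer cells of a type and less RNA per cell cannot be told apart.

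LPS is the outer-membrane glycolipid of Gram-negative bacteria. On microglia, the macrophages of the brain, it is passed by CD14 to a complex of Toll-like receptor 4 and MD-2, which signals through MyD88 and IRAK kinases to the NF-kB transcription factors and through TRIF to interferon regulatory factors. NF-kB drives inflammatory cytokines along with its own inhibitors, while secreted type I interferon acts back on the cells through JAK kinases and STAT factors and turns on antiviral genes. Macrophages under prolonged exposure typically combine lasting mediators with inhibitors of the pathway.

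Between 31.1% and 33.2% of the 45281 probes on the 4 arrays passed detection, at a detection p under 0.01 against the array's control beads. Across the 8598 genes tested, the PBS arrays of both genotypes correlated at r = 0.983 and the LPS arrays at 0.980, while pairs of unlike treatment lay between 0.929 and 0.949 (across genes, which are not independent replicates). Lrrk2 itself had 6 probes and passed detection in 1 of 24 values, with intensities of 88.2 to 133, so no genotype label could be checked by it. Of 24 microglial markers on the array, 17 were detected on all 4 arrays, Csf1r, Fcrls and Tyrobp among them, whereas P2ry12, Gpr34 and Siglech were detected on none. Of 11 neuronal markers, 10 were detected on no array, as were 7 of 9 endothelial and 8 of 10 neutrophil and lymphocyte markers. Of 11 oligodendrocyte lineage markers, 4 were detected on all 4 arrays, Mbp and Cnp among them. The summed deposited intensity of these 11 was 3233 and 3239 on the Ntg PBS and LPS arrays. On the LRRK2KO arrays it was 1814 and 1805. Of 10 fibroblast and mural markers, 2 were detected on all 4 arrays, Acta2 and Dcn. The part of these cells in the result was not tested.

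Levels below are normalized log2 intensities, given for the Ntg and then the LRRK2KO array of a treatment. A change is LPS minus PBS averaged over both genotypes, with its standard error (SE, n = 2 arrays per arm). Summed intensities of marker lists are instead deposited values, not normalized, and include the background signal of undetected markers. They therefore carry differences between whole arrays. The array medians were 111.1 (Ntg PBS), 103.6 (Ntg LPS), 94.95 (LRRK2KO PBS) and 98.87 (LRRK2KO LPS). After 24 h of LPS, limma called 562 genes higher (6.54% of those tested) and 773 lower (8.99%) at an adjusted p under 0.05. The rises of at least 2-fold numbered 312 (3.63%) and the falls 443 (5.15%), but beyond 16-fold there were 21 rises and 2 falls. All 1335 called genes moved in the same direction in Ntg and LRRK2KO cells, while the median change over all genes was -0.01. The fit counts disagreement between the genotypes as spread, so genes moving in opposite directions could hardly be called. The shared direction is therefore no separate finding. Both LPS arrays lay outside the range of both PBS arrays for 57.3% of all genes (above for 26.6%, below for 30.7%), so a lack of overlap between the arms is common here and marks no gene by itself. With 1 array left out the calls numbered 483 (Ntg PBS), 319 (Ntg LPS), 595 (LRRK2KO PBS) and 399 (LRRK2KO LPS). Without a genotype term in the fit, 712 genes were called. Where counts of kept calls are given below, they follow this order of left-out arrays. Of 205 called genes among those named in the text, 105 stayed called whichever array was left out. By the probe used, Upp1, Edn1, Vnn3, Slfn1, Slc28a2, Csf3, Mmp3, Adamts4, Thbs1, H2-Ab1, Trem3, Slc39a14 and Igfbp7 were detected on 1 of the 2 PBS arrays, and Cxcr4, Plau, Tk1, Pclaf, Birc5, Ctsk, Slc39a8 and Vcam1 on 1 of the 2 LPS arrays, so the changes given for them include a level not above background.

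**Figure D1:**
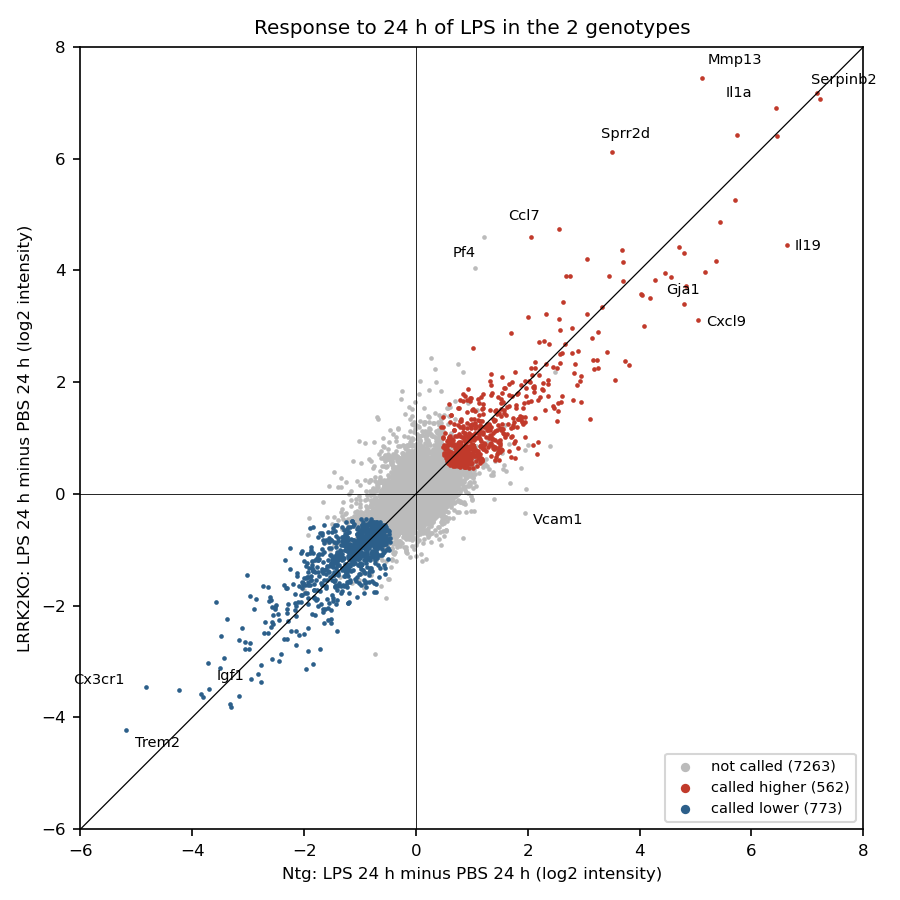
Each point is a gene, placed by its LPS minus PBS difference in log2 intensity in Ntg cells (horizontal) and in LRRK2KO cells (vertical), with 1 array per group. The 562 genes called higher lie in the upper right and the 773 called lower in the lower left, and the diagonal marks equal responses.

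The receptor complex for LPS was not among the strongly altered parts of the response. Of 17 genes for the receptor and its adaptors, 5 rose and 1 fell, with a median change of 0.18. Tlr4, the signalling receptor, stood at 9.33 and 8.90 with PBS and at 8.63 and 8.53 with LPS, a change of -0.53 ± 0.16 that did not pass (adjusted p = 0.0818). Cd14, the LPS-binding co-receptor, stood at 13.66 and 13.77 with PBS and at 13.84 and 13.95 with LPS, a change of 0.18 ± 0.14 (adjusted p = 0.438). Ly96, which encodes MD-2, rose by 0.74 ± 0.14, and the adaptor genes Tirap and Ticam2 rose by 0.77 ± 0.18 and 0.63 ± 0.15. The largest rise of the list was in Irak3, an inactive kinase that restrains the pathway, at 1.08 ± 0.18, ahead of the kinase gene Irak2 at 0.92 ± 0.14. Cd180, a relative of Tlr4 that dampens it, fell by 0.85 ± 0.18 on the log2 scale. These are small changes: 1, 0, 0 and 0 of the 5 rises kept their call with 1 array left out, and 0 of the fall.

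Among 21 other pattern-recognition receptors, 5 rose and 4 fell. Nlrp3, the sensor of an inflammasome, rose by 1.10 ± 0.16, and Nod1, a sensor of peptidoglycan fragments, by 1.01 ± 0.24. The falls of Clec7a and Tlr13 were larger than any rise of the list. Clec7a, the receptor for fungal beta-glucan, stood at 9.72 and 8.38 with PBS and at 6.14 and 6.45 with LPS, and Tlr13, which senses bacterial ribosomal RNA, fell from 10.69 and 10.13 to 7.72 and 8.30. Both receptors were lower on each LPS array than on either PBS array, by 2.76 ± 0.50 for Clec7a (change of -2.76, adjusted p = 0.0192) and 2.40 ± 0.37 for Tlr13 (change of -2.40, adjusted p = 0.0116). Both were called without the Ntg PBS or the LRRK2KO PBS array, and neither without an LPS array. Tlr2, the lipoprotein receptor, fell by 0.88 ± 0.16 on the log2 scale, a call lost with any 1 of the 4 arrays left out, and Clec4e, the receptor Mincle, changed by 1.01 ± 0.30 without passing (adjusted p = 0.0768).

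NF-kB genes changed modestly, and several inhibitors of signalling rose strongly. Of 17 NF-kB genes, 4 rose and 0 fell, and all 4 were modest: Tnfaip3, the ubiquitin editor A20, by 1.22 ± 0.15, its partner Tnip1 by 1.19 ± 0.17, Nfkbia, the inhibitor IkB-alpha, by 0.91 ± 0.15, and Nfkb2 by 0.83 ± 0.21 (1, 0, 2 and 1 of the 4 kept with an array left out). Rel, a subunit gene, changed by 0.80 ± 0.28 (adjusted p = 0.111) and Bcl3, a nuclear cofactor, by 0.84 ± 0.30 (adjusted p = 0.12). Of 18 feedback inhibitors of cytokine and kinase signalling, 9 rose and 2 fell, with a median change of 0.81. Il1rn, the antagonist of the interleukin-1 receptor, stood at 8.41 and 8.36 with PBS and reached 13.25 and 12.09 with LPS. Socs3, which shuts off STAT3 signalling, went from 8.65 and 8.04 to 12.35 and 12.20. Il10, the anti-inflammatory cytokine, went from 7.44 and 7.22 to 10.69 and 10.11. In each of these 3 genes the LPS arrays lay far above both PBS arrays. The changes were 4.28 ± 0.32 for Il1rn, 3.93 ± 0.17 for Socs3 and 3.07 ± 0.30 for Il10 (limma adjusted p = 0.00138, 0.000565 and 0.00299). The MAP kinase phosphatase gene Dusp2 rose by 3.06 ± 0.36 and Dusp16 by 2.02 ± 0.14, whereas Dusp4, of the same family, fell by 1.67 ± 0.20 on the log2 scale. Of the 9 rises, 6 kept their call under each omission, and of the 2 falls 1, 0, 1 and 1.

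Transcription factors of the list moved in both directions, 5 higher and 3 lower of 22, with a median of 0.05. Hif1a, the hypoxia factor that also drives glycolytic genes, rose by 1.23 ± 0.19, and Irf8, a lineage factor of microglia, by 0.96 ± 0.15. Egr1, an immediate early gene, rose by 1.19 ± 0.19, with Ntg and LRRK2KO levels that were already apart with PBS, at 8.70 and 6.80. Cebpa and Mef2c, both regulators of myeloid identity, fell by 1.81 ± 0.18 and 1.70 ± 0.18 on the log2 scale, and the immediate early gene Fos fell by 1.53 ± 0.26. Cebpa and Mef2c kept their call under every omission and Fos lost it without the Ntg PBS or the Ntg LPS array, while at most 1 of the 5 rises kept it.

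Interleukin-1 genes gave some of the largest rises. Il1a, encoding interleukin-1 alpha, stood at 7.36 and 5.32 with PBS and at 13.80 and 12.23 with LPS. Il1b, encoding interleukin-1 beta, stood at 10.65 and 9.60 with PBS and at 14.33 and 13.98 with LPS. Il18, the related cytokine activated by the same protease, went from 6.91 and 5.68 to 9.10 and 7.36. No LPS array overlapped a PBS array in these 3 genes, and in all 3 the Ntg array was the higher of its arm. Their changes were 6.67 ± 0.39, 4.03 ± 0.25 and 1.93 ± 0.21 (limma adjusted p = 0.001, 0.001 and 0.00444), and they kept their call under every omission. In all, 5 of 7 tested members rose and 0 fell, including the co-receptor gene Il1rap at 0.92 ± 0.16, with a median change of 0.92.

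Of 23 other cytokines and growth factors, 8 rose and 3 fell. Tnf, the early cytokine of the response, was only modestly higher: 11.51 and 11.66 with PBS against 12.38 and 12.72 with LPS, a rise of 0.97 ± 0.16 that lost its call with any 1 of the 4 arrays left out (limma adjusted p = 0.0136 with all arrays). Several other cytokines were not well above background on either PBS array, which leaves only a lower bound, the LPS mean against the higher, per PBS array, of the dimmest detected signal and the gene's own. By that measure Il19, of the interleukin-10 family, rose at least 35.3-fold, with LPS levels of 11.20 and 8.91. Il27, encoding a subunit of interleukin-27, rose at least 3.65-fold, and Csf2, the granulocyte-macrophage growth factor, at least 1.47-fold. Il6 reached 6.44 and 6.76, at least 3.22-fold above PBS (limma adjusted p = 0.00412, 0.00125, 0.00728 and 0.00112 for Il19, Il27, Csf2 and Il6). Csf3, the granulocyte growth factor, was detected on 1 of the PBS arrays and rose by 5.15 ± 0.31. Igf1, the trophic growth factor of microglia, went the other way, from 13.03 and 13 with PBS to 9.31 and 9.97 with LPS. Its LPS levels lay well below both PBS levels, with a change of -3.37 ± 0.20 (adjusted p = 0.001). Of the 8 rises, 5, 4, 5 and 4 kept their call with an array left out, and of the 3 falls 1, which was Igf1.

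Chemokines that attract monocytes rose beside those that attract neutrophils and T cells. Of 9 CC chemokine genes 5 rose and 0 fell, and of 8 CXC chemokine genes 4 rose and 0 fell. The monocyte attractants Ccl2 and Ccl12 went from 9.05 and 7.16 to 12.12 and 11.37 and from 10.04 and 8.50 to 12.84 and 11.47, and Ccl7 went from 11.56 and 8.55 to 14.12 and 13.30. In these 3 genes both LPS arrays were above both PBS arrays and LRRK2KO levels were below Ntg levels in either arm. The changes were 3.64 ± 0.30 for Ccl2, 2.88 ± 0.18 for Ccl12 and 3.65 ± 0.51 for Ccl7. Ccl5, which attracts T cells, rose by 2.80 ± 0.40 with the genotypes in the opposite order (PBS levels of 10.31 and 12.12). Ccl3 rose by 1.01 ± 0.21 and Ccl4 changed by 0.54 ± 0.15 (adjusted p = 0.0672), from PBS levels of 13.91 and 14.05. Of the neutrophil attractants, Cxcl1 rose from 8.64 and 7.51 to 11.40 and 11.41, a change of 3.33 ± 0.28, and Cxcl2 by 1.6 ± 0.14. Of the interferon-induced T cell attractants, Cxcl10 rose by 2.23 ± 0.39 and Cxcl9 at least 14.8-fold. Ccl2, Ccl12, Ccl7, Cxcl1, Cxcl2 and Cxcl9 kept their call under every omission, and 4, 3, 5 and 4 of the CC rises and 3, 3, 4 and 4 of the CXC rises did so under each.

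Receptors for these signals were mixed. Ccrl2, an atypical chemokine receptor, rose by 0.74 ± 0.17 (kept under no omission), while Cxcr4, the receptor for CXCL12, detected on 1 LPS array, fell by 3.02 ± 0.25 on the log2 scale. Cx3cr1, which binds neuronal fractalkine, fell by 4.14 ± 0.48. Cx3cr1 stood at 10.87 and 11.42 with PBS and at 6.04 and 7.96 with LPS, so both LPS arrays were below both PBS arrays, and the Ntg LPS array was the lower of its arm. Both falls were kept under every omission. In the TNF receptor superfamily 3 of 10 genes rose and 0 fell: Tnfrsf1b, which encodes TNF receptor type 2, by 1.54 ± 0.23, Cd40, the co-stimulatory receptor, by 1.45 ± 0.16, and the death receptor gene Fas by 1.17 ± 0.16 (1, 0, 3 and 2 kept).

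**Figure D2:**
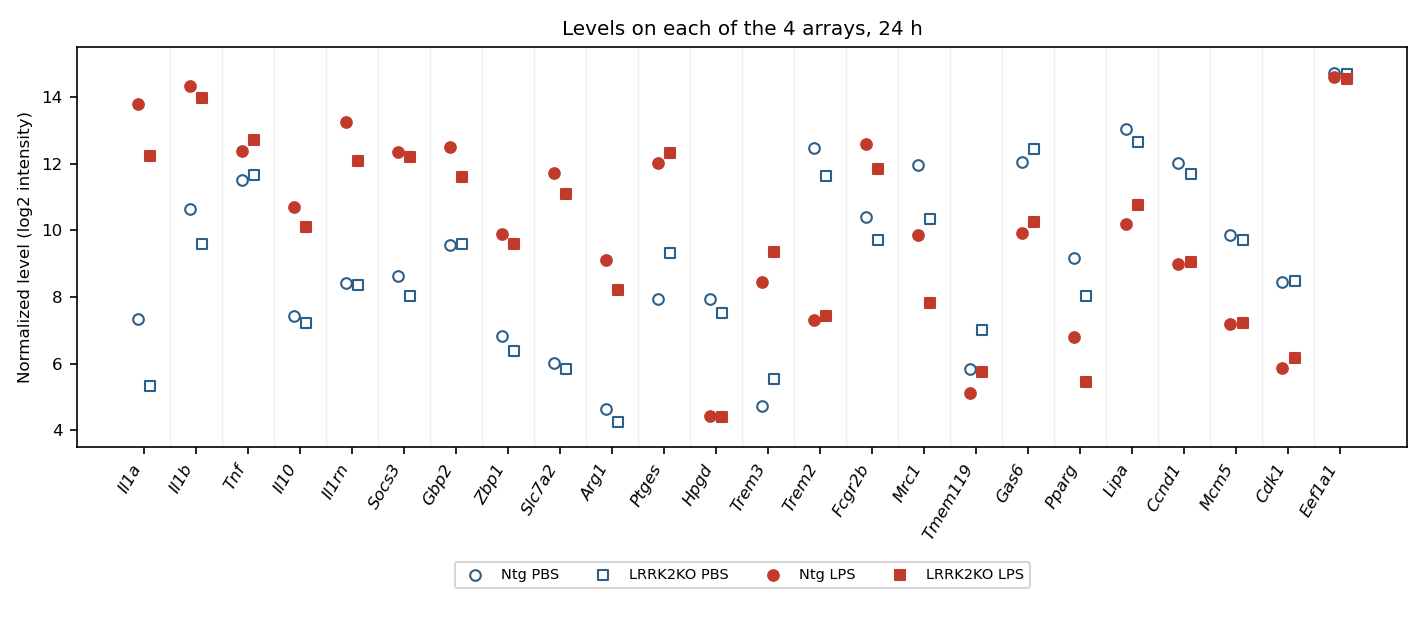
Normalized log2 intensity of 24 genes on each of the 4 arrays, with open symbols for PBS, filled symbols for LPS, circles for Ntg and squares for LRRK2KO. Il1a, Socs3 and Arg1 are higher and Trem2, Gas6, Lipa and Ccnd1 are lower on both LPS arrays, and Eef1a1, a translation factor, stays between 14.55 and 14.73.

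Of 36 interferon-stimulated effectors tested, 22 rose and 0 fell (8 rose without the genotype term), with a median change of 0.95, and 31 had both LPS arrays above both PBS arrays (26.6% of all genes did). Zbp1, a sensor of Z-form nucleic acid, went from 6.82 and 6.37 with PBS to 9.88 and 9.59 with LPS, and Oasl1, an antiviral regulator, from 7.54 and 6.67 to 10.12 and 9.60. Ifi205, of the DNA-sensing p200 family, went from 7.45 and 7.15 to 10.40 and 9.26. The changes were 3.14 ± 0.22, 2.76 ± 0.19 and 2.54 ± 0.24. Smaller rises were seen in Mx1, a GTPase against influenza viruses (2.01 ± 0.23), the exonuclease gene Isg20 (2.01 ± 0.26), Oas3, a synthetase that activates RNase L (1.79 ± 0.15), and Isg15, the ubiquitin-like modifier (1.58 ± 0.15), which was chosen after its values were seen. With an array left out, 12, 7, 13 and 10 of the 22 rises kept their call. In the signalling list 4 of 15 genes rose and 2 fell. Jak2, a receptor kinase, rose by 2.15 ± 0.15, Usp18, which removes ISG15 and restrains the receptor, by 2.11 ± 0.15, Irf7, the amplifier of interferon production, by 1.93 ± 0.16, and Stat2 by 1.26 ± 0.14 (4, 3, 4 and 4 kept). The factor gene Irf5 fell by 1.11 ± 0.18 and the gamma interferon receptor gene Ifngr1 by 1.05 ± 0.14 on the log2 scale (1, 0, 0 and 0 kept).

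The interferon-inducible GTPases, which attack the vacuoles of intracellular microbes, had 7 rises and 0 falls among 8 genes, with a median change of 1.79. Gbp2 went from 9.57 and 9.58 with PBS to 12.51 and 11.60 with LPS, Gbp3 from 8.46 and 8.56 to 11.40 and 10.20, and Gbp7 from 6.97 and 6.52 to 9.06 and 8.43. The LPS arrays were above the PBS arrays in all 8 genes, and in the 3 genes given the Ntg LPS array was the higher one. Their changes were 2.48 ± 0.24, 2.29 ± 0.31 and 2.0 ± 0.16. Gbp5, not well above background with PBS, rose at least 6.10-fold (adjusted p = 0.00159), Igtp, which encodes Irgm3, rose by 1.59 ± 0.19 and Gvin1 by 0.92 ± 0.18. Irgm1 changed by 0.56 ± 0.15 (adjusted p = 0.0547). Of the 7 rises, 5, 4, 5 and 5 kept their call with an array left out. The Gbp genes are close copies of one another and may share probe signal, so the split between them is uncertain.

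The promoters of these genes share a short motif, and 5 of them are shown because their rises are described here. The interferon-stimulated response element (ISRE) was searched as GAAA, any 2 bases and GAAA again, on both strands, in the 250 bases before the start of each gene in RefSeq's annotation of GRCm38.p6, where 7070 of the 8598 genes had a sequence. A match was found in 7 of 7 GTPase promoters and 10 of 28 effector promoters (35.7%), against 209 of all 7070 (2.96%). The stretches below run 5′ to 3′ on each gene's strand, with matches in capitals, and overlapping matches run together in Gbp3 and Isg15. A match describes letters and is not a measured binding site.
Gbp2 (chr3:142620573-142620642, plus strand): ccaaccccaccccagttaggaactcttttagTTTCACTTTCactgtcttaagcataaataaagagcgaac
Gbp3 (chr3:142559964-142560033, plus strand): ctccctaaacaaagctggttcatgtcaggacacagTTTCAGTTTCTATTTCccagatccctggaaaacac
Gbp7 (chr3:142530251-142530320, plus strand): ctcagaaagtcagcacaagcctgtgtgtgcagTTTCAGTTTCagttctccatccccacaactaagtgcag
Igtp (chr11:58199486-58199555, plus strand): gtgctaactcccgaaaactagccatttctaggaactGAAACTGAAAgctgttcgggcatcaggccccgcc
Isg15 (chr4:156200854-156200923, minus strand): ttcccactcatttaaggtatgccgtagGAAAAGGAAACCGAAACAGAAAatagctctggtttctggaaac

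The same search over all rises of at least 2-fold found the ISRE in 33 of 235 promoters (14%), against 2.46% of 366 promoters of genes that fell at least 2-fold. An NF-kB site was searched as GGGA, any base and TTTCC on both strands. It was rarer, in 4 promoters of rising genes (1.7%), 25 of all (0.354%) and 1 of falling genes (0.273%). The first 4 promoters below hold that site in capitals and belong to Cxcl1, Cxcl2, Il6 and Nfkbia, whose rises are given above. Nfkbia rose by less than 2-fold and is not counted among the rising genes here. Gbp5, which is counted, holds an ISRE and, further toward the start, an NF-kB site.
Cxcl1 (chr5:90891140-90891209, plus strand): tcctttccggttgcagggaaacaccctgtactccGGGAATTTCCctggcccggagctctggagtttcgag
Cxcl2 (chr5:90903769-90903838, plus strand): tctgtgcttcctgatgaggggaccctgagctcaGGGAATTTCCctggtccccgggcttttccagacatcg
Il6 (chr5:30013044-30013113, plus strand): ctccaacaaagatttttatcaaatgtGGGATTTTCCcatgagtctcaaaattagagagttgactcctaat
Nfkbia (chr12:55492648-55492717, minus strand): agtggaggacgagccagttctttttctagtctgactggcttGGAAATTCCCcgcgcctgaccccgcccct
Gbp5 (chr3:142496754-142496883, plus strand): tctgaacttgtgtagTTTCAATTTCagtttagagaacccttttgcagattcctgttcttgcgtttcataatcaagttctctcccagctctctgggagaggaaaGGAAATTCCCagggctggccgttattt

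**Figure D3:**
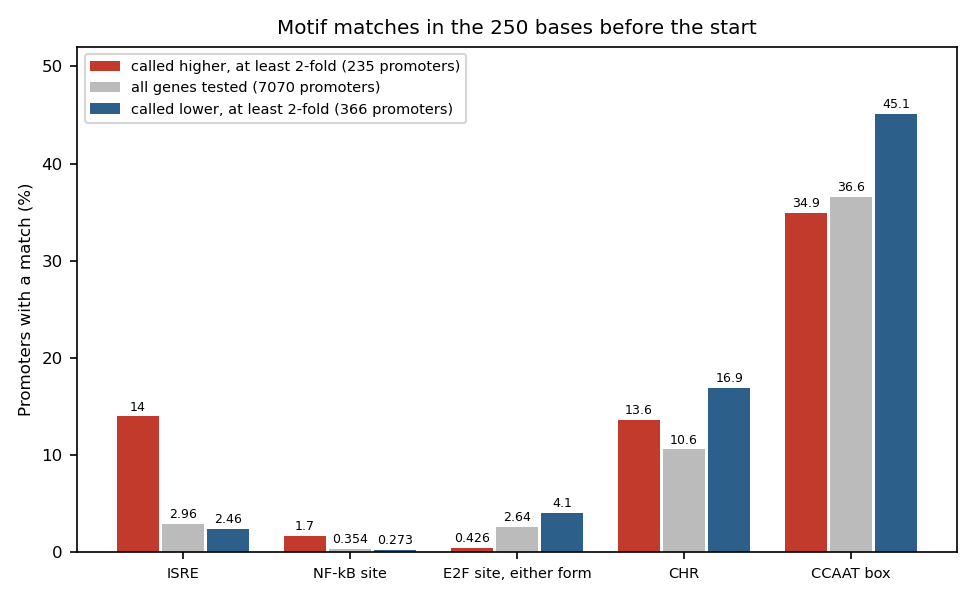
Percentage of promoters with at least 1 match to each motif in the 250 bases before the start, for genes called higher at least 2-fold (235 promoters), all genes tested (7070) and genes called lower at least 2-fold (366). The ISRE bar is tallest for rising genes (14%) and the E2F and CCAAT bars for falling genes (4.1% and 45.1%).

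Enzymes that consume arginine rose on both sides of that pathway. Slc7a2, the cationic amino acid transporter that brings arginine into macrophages, went from 6.02 and 5.83 with PBS to 11.73 and 11.10 with LPS, a change of 5.49 ± 0.17 (adjusted p = 0.000198). Arg1, the arginase that yields ornithine, was not well above background with PBS and reached 9.10 and 8.21, at least 13.4-fold higher (adjusted p = 0.000523). Nos2, the inducible nitric oxide synthase, rose at least 2.76-fold, to 6.37 and 6.39 (adjusted p = 0.00614). Both LPS arrays exceeded both PBS arrays in each of these genes. Gch1, which makes the synthase's cofactor, rose by 1.44 ± 0.14, Ass1, which recycles citrulline to arginine, by 1.12 ± 0.24, and Acod1, which makes itaconate, by 1.06 ± 0.24. In all, 6 of 11 genes rose and 0 fell, and 4, 4, 5 and 3 of the 6 kept their call with an array left out.

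Prostaglandin genes changed at both the synthesis and the removal step. Ptges, the inducible synthase of prostaglandin E2, went from 7.94 and 9.32 with PBS to 12.02 and 12.33 with LPS, a rise of 3.54 ± 0.27, and Hpgd, which inactivates the product, went from 7.93 and 7.52 to below detection, a fall of at least 6.30-fold (limma adjusted p = 0.00154 and 0.00112). The cyclooxygenase gene Ptgs2 was detected on 1 LPS array, with LPS levels of 4.99 and 5.74, and was not called (adjusted p = 0.107). Hpgds, the synthase of prostaglandin D2, fell by 1.14 ± 0.16 and Alox5ap, required for leukotrienes, by 1.18 ± 0.25 on the log2 scale, and the prostacyclin receptor gene Ptgir rose by 1.11 ± 0.21. The list of 12 had 3 rises and 3 falls, of which Ptges and Hpgd were kept under every omission (1, 1, 2 and 2 of each direction were kept).

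Among acute-phase and antimicrobial proteins 7 of 13 genes rose and 0 fell, with a median change of 1.37. Lcn2, which binds bacterial siderophores, went from 9.38 and 10.57 with PBS to 14.75 on both LPS arrays, a change of 4.78 ± 0.31. S100a8, a calprotectin subunit, rose by 4.57 ± 0.29, the protease inhibitor gene Slpi by 3.29 ± 0.50, Ch25h, which makes an antiviral oxysterol, by 2.17 ± 0.22, Chil1, a chitinase-like protein, by 2.02 ± 0.28, and Cp, the ferroxidase ceruloplasmin, by 1.74 ± 0.23 (5, 5, 5 and 6 of the 7 kept). Of 14 metalloproteinases and inhibitors, 5 rose and 2 fell. The collagenase gene Mmp13 stood at 9.40 and 6.42 with PBS and at 14.51 and 13.86 with LPS, a change of 6.28 ± 0.53. Mmp3 rose by 4.22 ± 0.27, Adamts4, an aggrecanase, by 3.03 ± 0.22 and Mmp9 by 1.32 ± 0.30, while Timp2, an inhibitor of these enzymes, fell from 11.50 and 11.48 to 9.35 and 9.47, a change of -2.08 ± 0.18. Of the 5 rises 3, 4, 3 and 3 were kept, and Timp2 was kept throughout.

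Intracellular protease inhibitors and cornified-envelope proteins rose beside them, 5 of 12 with 0 falls. Serpinb2, which inhibits plasminogen activators, went from 6.41 and 5.67 to 13.57 and 12.86, a change of 7.17 ± 0.34. The stefin genes Cstdc4 and Csta2 rose by 6.43 ± 0.14 and 6.09 ± 0.24, and Sprr2d, a small proline-rich protein, at least 24.0-fold (4, 4, 3 and 4 of the 5 kept). Stefins and Sprr2 genes have near-identical copies that may share probes, so which copy rose is uncertain. In the plasminogen and coagulation list, Plaur, the receptor of urokinase, rose by 1.19 ± 0.15, while Plau, urokinase itself, fell by 1.86 ± 0.23 and F13a1, a transglutaminase of clots, by 1.26 ± 0.31 on the log2 scale. Thbs1, thrombospondin 1, changed by 1.28 ± 0.35 (adjusted p = 0.0619). The list of 7 had 1 rise and 3 falls (0, 0, 1 and 1 of the rise kept, and 1, 1, 1 and 2 of the falls).

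Several large rises lay outside these roles. Upp1, a uridine phosphorylase of pyrimidine salvage, went from 5.13 and 4.86 with PBS to 12.35 and 11.94 with LPS. Edn1, encoding the vasoconstrictor endothelin-1, went from 4.76 and 5.27 to 9.55 and 9.58, and Gja1, the gap junction protein connexin 43, from 6.81 and 6.83 to 11.08 and 10.66. In each the arms were far apart and the genotypes close together, and Upp1 and Edn1 were each detected on 1 PBS array. The changes were 7.15 ± 0.17, 4.55 ± 0.41 and 4.05 ± 0.21 (limma adjusted p = 5.89e-05, 0.00235 and 0.000915). Vnn3, a pantetheinase, rose by 4.57 ± 0.28, Slfn1, a schlafen linked to growth arrest of T cells, by 4.09 ± 0.34, Slco3a1, an organic anion transporter, by 3.8 ± 0.17, Slc28a2, a concentrative nucleoside transporter with a close copy, by 3.81 ± 0.17, and Shisa3 at least 9.76-fold. All 8 genes kept their call under every omission. Gja1 is also a marker of astrocytes. Of the 11 astrocyte markers on the array, 4 were detected on no array, Gja1 alone was detected on all 4, and the list's summed intensity rose from 1519 and 1166 to 3491 and 2699, of which Gja1 made up 245 and 182 with PBS and 2352 and 1703 with LPS.

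**Figure D4:**
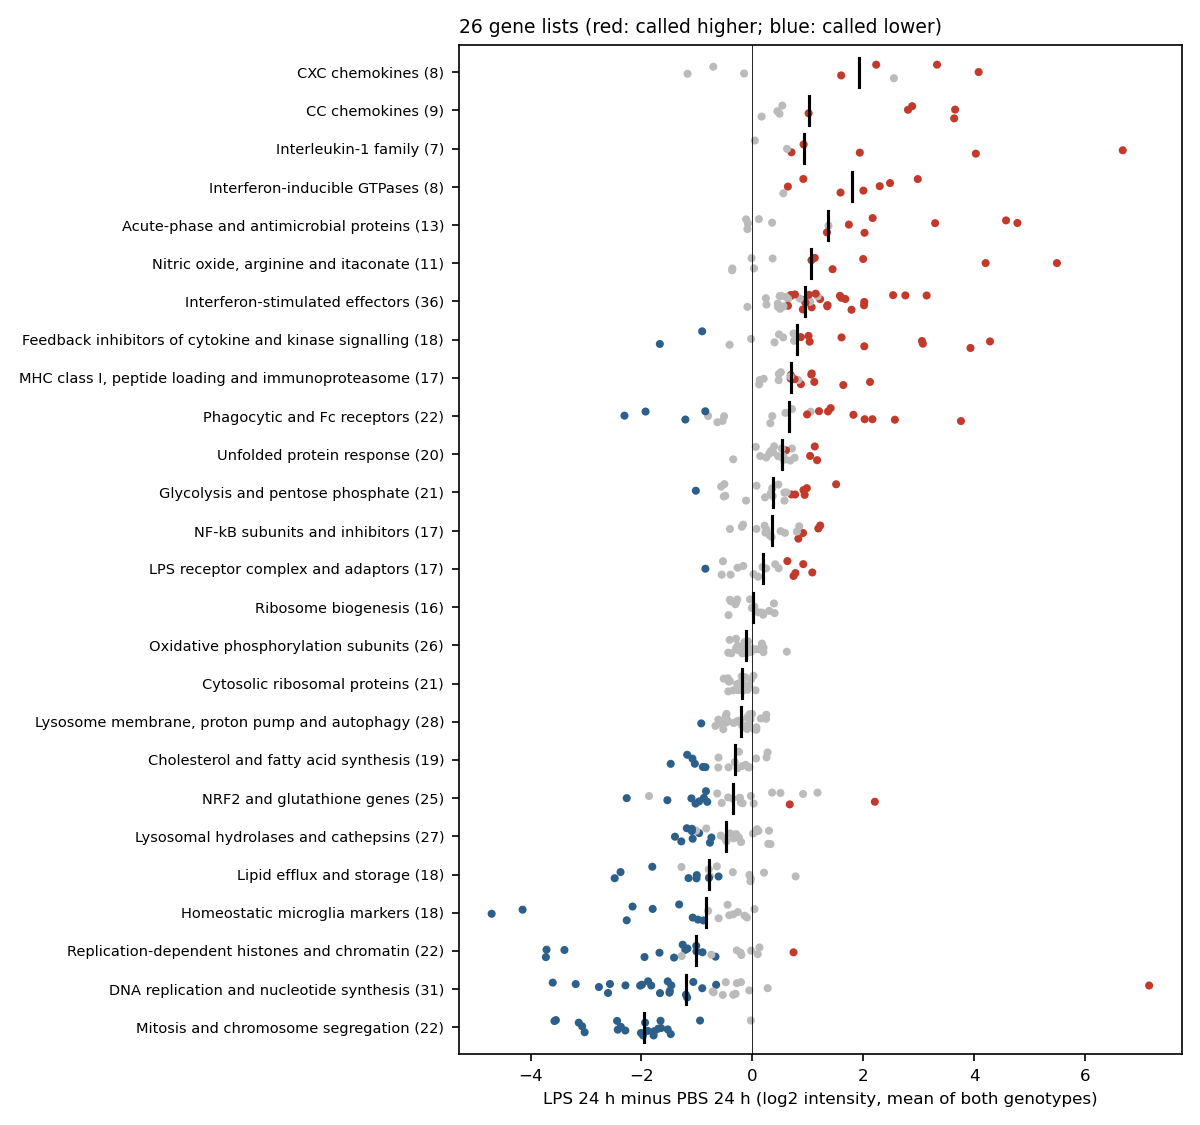
LPS minus PBS change in log2 intensity, averaged over both genotypes, for every tested member of 26 gene lists (number tested in brackets), with red for called higher, blue for called lower, grey for not called and a black bar at the list's median. The lists run from CXC chemokines (median 1.91) at the top to mitosis genes (median -1.95) at the bottom.

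Genes for class I antigen presentation rose in 9 of 17 cases and fell in 0, with a median of 0.69. H2-Q6, of the nonclassical Q family, rose by 2.12 ± 0.43, the peptide transporter gene Tap1 by 1.64 ± 0.19, Nlrc5, the transactivator of class I genes, by 1.11 ± 0.19 and H2-K1 by 1.07 ± 0.19, whereas B2m, the invariant chain, stood at 14.37 and 14.38 with PBS and 14.52 and 14.48 with LPS (change of 0.12 ± 0.14, adjusted p = 0.615). Class I heavy chains are near-identical and may share probes. The calls were sensitive to single arrays, with 1, 0, 4 and 2 of the 9 kept. Of 11 class II and co-stimulation genes 2 rose and 2 fell. H2-Ab1, a class II beta chain, went from 4.63 and 5.24 (detected on 1 PBS array) to 7.18 and 8.38, a change of 2.84 ± 0.20, and Cd274, the inhibitory ligand PD-L1, from 9.55 and 10.29 to 12.36 and 11.96, a change of 2.24 ± 0.32. Cd83, which stabilises class II molecules, fell by 1.14 ± 0.20 on the log2 scale, and Cd74, the invariant chain, changed by 0.16 ± 0.20 (adjusted p = 0.634; -0.06 without the Ntg LPS array). The class II rises were kept in 2, 1, 2 and 2 cases and the falls in 0, 0, 1 and 0. In the complement list 2 of 10 genes rose and 0 fell: Cfb, factor B of the alternative pathway, at least 4.51-fold, and Itgam, a chain of complement receptor 3, by 1.62 ± 0.14 (2, 2, 1 and 2 kept). C1qa, of the classical pathway, changed by -0.64 ± 0.20 (adjusted p = 0.0836).

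Of 18 markers of homeostatic microglia 9 fell, 0 rose and 9 were not called, with a median change of -0.84, and 3 fell without the genotype term. Trem2, a lipid receptor of phagocytosis, went from 12.48 and 11.64 with PBS to 7.30 and 7.42 with LPS, and Gas6, a bridge between dying cells and TAM receptors, from 12.05 and 12.44 to 9.91 and 10.26. Olfml3 went from 9.35 and 10.76 to 6.83 and 8.74, and Fcrls from 13.87 and 14.12 to 11.74 and 12.65. In all 4 genes the LPS arrays lay below both PBS arrays. The changes were -4.70 ± 0.26 for Trem2, -2.16 ± 0.14 for Gas6, -2.27 ± 0.21 for Olfml3 and -1.80 ± 0.20 for Fcrls. Smaller falls were seen in Pros1, the second TAM ligand (-1.32 ± 0.19), Tmem119 (-0.98 ± 0.21) and Csf1r, the survival receptor of microglia (-0.89 ± 0.15). With an array left out, 6, 5, 7 and 5 of the 9 kept their call, Trem2, Gas6, Olfml3, Fcrls and Cx3cr1 among them each time, and Csf1r under no omission. The summed deposited intensity of the 24 markers on the array fell from 55002 to 17669 in Ntg and from 41103 to 21996 in LRRK2KO cells. Deposited values can order the genotypes otherwise: with PBS, Fcrls stood at 17265 in Ntg and 15523 in LRRK2KO cells, unlike its normalized levels.

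Phagocytic and Fc receptors moved both ways, with 9 rises and 4 falls among 22. Trem3, an activating receptor of the Trem cluster, went from 4.74 and 5.54 with PBS (detected on 1 array) to 8.45 and 9.34 with LPS, opposite to Trem2. Trem1, an amplifier of inflammation chosen after its values were seen, rose at least 1.70-fold. Both paired receptors for sialylated ligands rose, the inhibitory Pilra from 8.57 and 9.11 to 10.59 and 11.14 and the activating Pilrb1 from 7.64 and 8.06 to 10.26 and 10.58. Fcgr2b, the inhibitory receptor for immunoglobulin G, went from 10.39 and 9.70 to 12.59 and 11.83. The changes were 3.76 ± 0.15 for Trem3, 2.02 ± 0.14 for Pilra, 2.57 ± 0.14 for Pilrb1 and 2.16 ± 0.17 for Fcgr2b, and all of them kept their call under every omission, as did Mrc1, the mannose receptor, which fell from 11.97 and 10.34 to 9.88 and 7.83 (change of -2.31 ± 0.18). Of the 9 rises 6, 6, 8 and 8 were kept and of the 4 falls 2, 2, 2 and 3. Mrc1 also marks border macrophages. Of 10 markers of border macrophages and monocytes on the array 5 were detected on all 4 arrays and 4, including Cd163, Lyve1 and Ccr2, on none. The list's summed intensity went from 18847 to 12766 in Ntg and from 8048 to 8272 in LRRK2KO cells. Within that sum Pf4 went from 2176 to 3848 and from 194 to 2154, whereas Mrc1 and F13a1 were lower with LPS in both genotypes, and the part of these cells in the result was not tested.

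Of 22 genes for mitosis and chromosome segregation 21 fell and 0 rose, with a median change of -1.95. Genes entered by detection on at least 2 arrays, so a member detected only on the PBS arrays could only fall. A further 17 of the 39 members on the array were not tested. Without the detection filter 21 of 39 fell, and of the 4 detected on all 6 arrays 3 fell (median -1.3). Prc1, which bundles the spindle midzone, went from 8.26 and 8.83 with PBS to below detection with LPS, a fall of at least 11.1-fold, and Pbk, a mitotic kinase, fell at least 7.39-fold. Cdk1, the kinase that starts mitosis, went from 8.44 and 8.49 to 5.88 and 6.17, Top2a, which untangles chromosomes, from 8.04 and 8.50 to 5.20 and 5.28, and Cenpa, the centromeric histone, from 8.42 and 9.16 to 5.64 and 5.80. The arms did not overlap and the genotypes were close in both. The changes were -2.44 ± 0.18, -3.02 ± 0.37 and -3.07 ± 0.37, with Birc5, a subunit of the chromosomal passenger complex detected on 1 LPS array, at -3.13 ± 0.17. The gene not called was Kif23, a kinesin of the midzone, at 6.93 and 6.67 with PBS and 7.01 and 6.53 with LPS (change of -0.03 ± 0.17, adjusted p = 0.933; 0.15 without the LRRK2KO LPS array). That value depends on the probe: Kif23 has 3 probes with changes from -2.99 to -0.03, the mean of its detected probes changed by -1.84 (adjusted p = 0.00197), and 22 of 22 genes fell by that measure. With an array left out, 19, 19, 20 and 19 of the 21 falls kept their call.

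DNA replication and nucleotide synthesis had 20 falls among 31 genes and 1 rise, which was Upp1, a salvage enzyme not bound to replication. The detection filter acted here too. Of the 17 members detected on all 6 arrays 12 fell, and without the filter 19 of 36 fell. Tk1, thymidine kinase, went from 8.22 and 8.75 with PBS to 4.52 and 5.26 with LPS (detected on 1 array), and Mcm5, of the replicative helicase, from 9.85 and 9.71 to 7.20 and 7.23. Uhrf1, which keeps DNA methylation through replication, went from 8.22 and 8.19 to 5.51 and 5.70. Both LPS arrays were below both PBS arrays in each. The changes were -3.60 ± 0.17 for Tk1, -2.57 ± 0.18 for Mcm5 and -2.60 ± 0.22 for Uhrf1, beside -3.19 ± 0.22 for Pclaf, which binds the sliding clamp and was detected on 1 LPS array, and -1.67 ± 0.18 for Mcm6, chosen after its values were seen. Mcm10 and Mcm7 fell at least 5.17-fold and 3.70-fold. Of the 20 falls 14, 14, 16 and 14 were kept. Replication-dependent histone and chromatin genes had 13 falls and 1 rise among 22 (8, 7, 6 and 6 of the falls kept, the rise never), led by H2ac12 at -3.72 ± 0.15, whose copies are near-identical and may share probes.

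Genes of the G1 phase, its inhibitors and p53 targets had 2 rises and 8 falls among 27, and 17 were not called. Among all genes tested 6.54% rose and 8.99% fell. Ccnd1, the G1 cyclin, went from 12.03 and 11.68 with PBS to 8.98 and 9.04 with LPS, a change of -2.85 ± 0.16. E2f2, a factor for S-phase genes, fell at least 2.65-fold, Cdkn2c, an inhibitor of CDK4 and CDK6, fell by 1.66 ± 0.17 on the log2 scale, and Sesn1, a p53 target that restrains mTORC1, fell by 2.34 ± 0.21. The stress genes Gadd45b and Gadd45a rose by 2.33 ± 0.27 and 1.47 ± 0.17. Of the falls, Ccnd1, E2f2, Cdkn2c and Sesn1 were the 4 kept under each omission, and of the 2 rises 2, 2, 2 and 1 were kept.

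E2F proteins bind short sites in the promoters of many replication genes. Searched on both strands as TTTGGCGC or TTTCCCGC, a site was found in 4.1% of the promoters of genes that fell at least 2-fold, 2.64% of all and 0.426% of those of rising genes. The replication list had 3 of 27 promoters with a site (11.1%) and the mitosis list 0 of 19. CCAAT boxes (searched as CCAAT) were found in 13 of 19 mitosis promoters (68.4%), against 36.6% of all. The cell cycle homology region (searched as TTTGAA) was found in 7 of the 19 (36.8%), against 10.6% of all. Neither was particular to cell cycle genes. CCAAT was in 80% of 15 cholesterol and fatty acid synthesis promoters and 71.4% of 14 class I promoters. TTTGAA was in 4 of 7 GTPase promoters (57.1%). Among changes of at least 2-fold, TTTGAA was in 13.6% of rising and 16.9% of falling promoters. The promoters of 2 helicase genes show the first E2F form, TTTGGCGC, in capitals.
Mcm5 (chr8:75109329-75109398, plus strand): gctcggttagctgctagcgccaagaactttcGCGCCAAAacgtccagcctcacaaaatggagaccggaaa
Mcm6 (chr1:128359736-128359825, minus strand): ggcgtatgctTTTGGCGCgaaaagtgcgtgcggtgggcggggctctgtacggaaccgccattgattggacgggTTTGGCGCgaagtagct

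Of 18 genes for lipid efflux and storage 8 fell and 0 rose (4 fell without the genotype term), with a median of -0.78. Lipa, the lysosomal acid lipase, went from 13.05 and 12.66 with PBS to 10.19 and 10.77 with LPS, a change of -2.38 ± 0.27. Pparg, the nuclear receptor of lipid uptake, went from 9.16 and 8.04 to 6.79 and 5.44, a change of -2.48 ± 0.17. The fatty acid carrier gene Fabp3 fell by 1.81 ± 0.21 and lipoprotein lipase, Lpl, by 1.15 ± 0.20 on the log2 scale, and Pltp, a phospholipid transfer protein, changed by -1.28 ± 0.41 (adjusted p = 0.0917). Lipa, Pparg and Fabp3 were kept under every omission (4, 3, 3 and 3 of 8 kept). Among 19 genes for cholesterol and fatty acid synthesis 6 fell and 0 rose: Cyp51 by 1.47 ± 0.32, Sqle by 1.18 ± 0.20, Dhcr7 by 1.04 ± 0.16 and Fdps by 0.89 ± 0.17, all of the sterol pathway, and Fads1, a desaturase, by 1.08 ± 0.17 among them. These falls were smaller and rested on single arrays, with 0, 0, 2 and 2 of the 6 kept.

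Glycolysis and respiration genes differed in how many were called. Of 21 genes for glycolysis and the pentose phosphate pathway 6 rose and 1 fell, with a median of 0.37. Slc16a3, the exporter of lactate, rose from 7.03 and 7.57 to 8.64 and 8.98, a change of 1.51 ± 0.15 that was kept under every omission. The glucose transporter genes Slc2a6 and Slc2a1 rose by 0.98 ± 0.22 and 0.92 ± 0.15, and the enzyme genes Pfkl and Tpi1 by 0.94 ± 0.22 and 0.77 ± 0.17, but none of these was kept under any omission. Taldo1, of the pentose phosphate pathway, fell by 1.02 ± 0.16 on the log2 scale and was not kept either. None of 26 oxidative phosphorylation subunits was called (median -0.12, range -0.44 to 0.62), and of 20 genes of the tricarboxylic acid cycle list only Idh1 was, at -1.49 ± 0.20 (kept only without the LRRK2KO PBS or the LRRK2KO LPS array).

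Of 25 NRF2 targets and glutathione genes 2 rose and 8 fell. The iron exporter gene Slc40a1 went from 10.29 and 10.21 with PBS to 7.67 and 8.30 with LPS, a change of -2.27 ± 0.24 that was kept throughout. Gclm, of glutathione synthesis, fell by 1.53 ± 0.26 and catalase, Cat, by 1.10 ± 0.27 on the log2 scale. Gstt1, a glutathione transferase, rose at least 3.85-fold and was kept throughout. Slc7a11, the cystine importer, was not called at 1.17 ± 0.57 (adjusted p = 0.229), with levels of 7.13 and 10.26 with PBS and 9.01 and 10.73 with LPS, so that the genotypes were further apart than the arms. Of the 8 falls 1, 1, 2 and 3 were kept.

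Lysosomal hydrolases fell in 9 of 27 cases and rose in 0, with a median of -0.47. Genes of the lysosomal membrane, proton pump and autophagy fell in 1 of 28 cases (8.99% of all genes fell). Hexa, a hexosaminidase subunit, went from 13.13 and 13.14 to 11.79 and 12.11, a change of -1.18 ± 0.15. The cathepsin genes Ctsf and Ctsk fell by 1.40 ± 0.22 and 1.28 ± 0.24 on the log2 scale, Tpp1, a peptidase, by 1.09 ± 0.19, and the mannosidase genes Manba and Man2b1 by 1.09 ± 0.23 and 1.08 ± 0.19. The single fall of the second list was Tfeb, the master regulator of lysosomal genes, at least 1.38-fold. All were small and sensitive to single arrays: 0, 1, 2 and 2 of the 9 hydrolase falls were kept, and Tfeb under no omission. Among 21 Parkinson disease genes and Rab substrates of LRRK2, 1 fell, beside 8.99% of all genes. It was Atp13a2, a lysosomal polyamine exporter, from 9.69 and 10.27 to 8.65 and 9.26 (change of -1.03 ± 0.14, kept only without the LRRK2KO PBS array).

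Stress and death genes moved to a smaller extent. In the unfolded protein response list 4 of 20 genes rose and 0 fell, among them the disulphide isomerase genes Pdia6 and Pdia4 by 1.17 ± 0.16 and 1.04 ± 0.22 and Creld2 by 1.12 ± 0.15 (3, 0, 0 and 0 kept). None of 10 heat-shock genes was called. Of 20 genes for apoptosis and cell death 6 rose and 2 fell. Traf1, an adaptor of TNF receptors that NF-kB induces, rose by 2.72 ± 0.28 and Mlkl, the pore protein of necroptosis, by 2.02 ± 0.15, both kept throughout, and Casp8 rose by 0.84 ± 0.14. Bcl2l11, the death-promoting BIM, fell by 1.82 ± 0.29 and the survival gene Mcl1 by 0.82 ± 0.16 on the log2 scale. Of the rises 2 were kept under each omission and of the falls 1, 0, 0 and 0. None of 21 ribosomal protein genes was called (median -0.19, range -0.52 to 0.06), nor any of 16 for ribosome biogenesis (median 0.01).

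Ntg and LRRK2KO cells responded in the same direction for 74.4% of all genes, with r = 0.835 between their changes across genes. With 1 array per genotype and treatment, the differences between the genotypes have no test and are given as values. In Ntg cells the LPS array was at least 2-fold above the PBS array for 371 genes (4.31%) and below it for 521 (6.06%), and in LRRK2KO cells for 392 (4.56%) and 455 (5.29%). Counted with its sign, the LRRK2KO response was at least 2-fold above the Ntg response in 155 genes (1.8%). It was at least 2-fold below it in 72 (0.837%). A gene that fell less in LRRK2KO cells thus counts as above. Cx3cr1 did so, with changes of -4.83 in Ntg and -3.46 in LRRK2KO cells. These counts of genes include levels not above background. Of the 155, 53 had their larger genotype gap with PBS and 102 with LPS, and of the 72 these were 26 and 46, against 4034 and 4384 of 8418 genes detected on at least 2 of the 4 arrays. The genotypes moved in opposite directions in 98 of the 155, 31 of the 72 and 2128 of the 8418, and choosing genes for a large difference in response favours opposite movement. Sprr2g, not above background with PBS, stood at 5.86 and 8.86 with LPS, so its difference in response has no exact size. Pf4, a platelet-type chemokine, went from 10.74 and 6.97 to 11.80 and 11.01. For Pf4 and for Mmp13 the gap lay with PBS, where LRRK2KO minus Ntg was -3.77 and -2.98 on the log2 scale, against -0.79 and -0.65 with LPS. Ccl7 responded by 2.19 more in LRRK2KO cells, and Igfbp7, detected with PBS in Ntg cells only, stood at 7.48 and 8.97 with LPS.

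The 72 genes whose LRRK2KO response was lower, counted with its sign, included interferon-induced chemokines. Cxcl10 went from 8.53 and 9.15 to 11.65 and 10.50, so the LRRK2KO response was smaller by 1.77 on the log2 scale, and for Ccl5 it was smaller by 1.51, with levels of 10.31 and 12.12 before and 13.87 and 14.17 after. Cxcl9, Il19 and BC018473 were not above background with PBS and stood at 9.59 and 8.01, 11.20 and 8.91, and 7.02 and 5.14 with LPS. Vcam1, an adhesion molecule, stood at 8.0 with LPS in Ntg cells and was not above background with LPS in LRRK2KO cells, and Cdhr3 went from 5.1 and 7.5 with PBS to below detection on both LPS arrays. The differences in response of these 5 genes therefore have no exact size. Across the interferon-stimulated effectors the median response was 0.84 in Ntg and 0.92 in LRRK2KO cells, and across the GTPases 1.99 and 1.46. Choroid plexus markers moved with genotype: their summed intensity was 8447 and 5192 on the Ntg PBS and LPS arrays and 1127 and 781 on the LRRK2KO arrays, with Ttr at 7646, 4575, 649 and 299 of it in that order, 1 of 6 markers detected on all 4 arrays, and Folr1 on none. Their part in the genotype values was not tested.

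**Figure D5:**
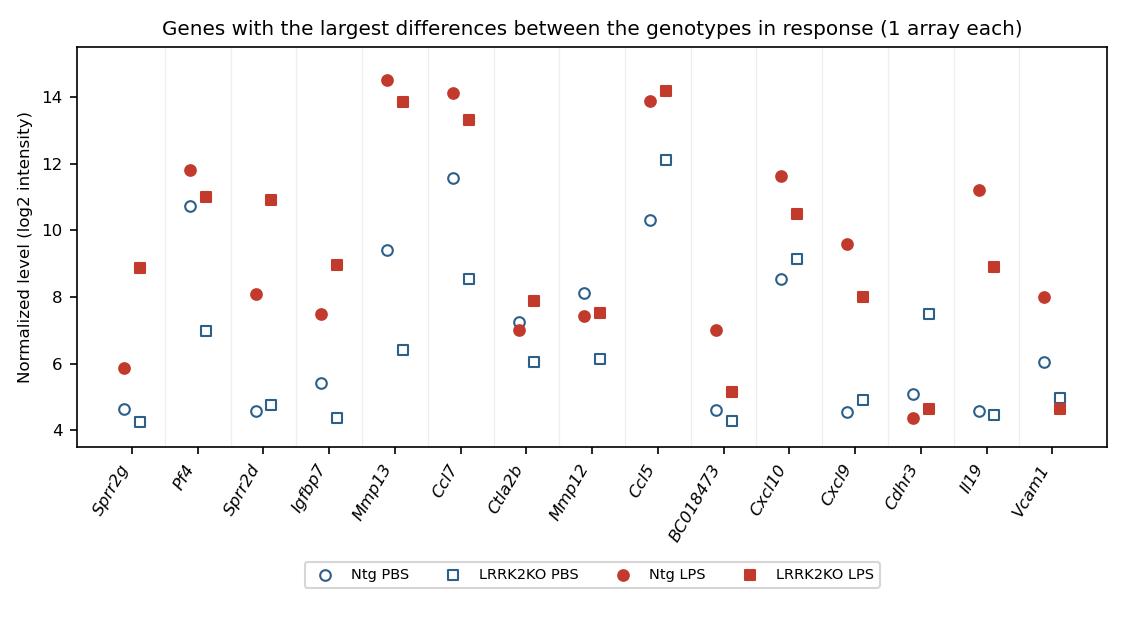
Normalized log2 intensity on each of the 4 arrays for genes among those with the largest differences between the genotypes in response, with open symbols for PBS, filled for LPS, circles for Ntg and squares for LRRK2KO. Pf4 and Mmp13 differ between the genotypes mainly with PBS, and Sprr2g, Vcam1 and Il19 mainly with LPS.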

How the data were processed

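Total RNA was extracted on columns, checked on a Bioanalyser and amplified to biotinylated cRNA for Illumina beadchips, per the labels' protocols. The deposited table holds, per the file headers, an unnormalized intensity and a detection p-value for each of 45281 probes, and BeadStudio (version not given in the sources used here) is named in the submitters' processing notes. The authors' series matrix holds processed intensity values of the same arrays and served as an alternative. How it was normalized is not stated there.

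Background was corrected and values were quantile normalized and put on the log2 scale by neqc of limma 3.58.1 in R 4.3.3 (normexp from detection p-values, offset 16), starting from the deposited intensity. Platform annotation gave 1 symbol to 34885 probes, several to 18 and none to 10378. A gene was tested if a probe was detected (p under 0.01) on at least 2 of the 6 arrays, and its detected probe with the highest mean stood for it. The 8598 genes were fitted with arm and genotype over the 6 arrays (lmFit, eBayes, 2 residual and 3.88 prior degrees of freedom), two-sided, with Benjamini-Hochberg adjustment over all of them. The number of arrays limits the precision. The fit was also tested on simulated data that held no genotype effect. It called 45 of 50 simulated log2 changes of 1 and all 50 at each of 2, 3 and 4, beside 20 false calls. Promoters came from RefSeq (GRCm38.p6).

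The members and the 57 gene lists were chosen with earlier results of these data known. Genes were named by a rule: the 30 largest called rises and falls, the 6 largest and 2 smallest changes per list, the 8 largest genotype differences in each direction, the 12 largest bounds in each direction, the 10 smallest called changes, the 5 highest levels, and a fixed set of inflammatory and microglial genes. Genes outside it are named as such. Alternatives changed the arrays fitted, genotype term, normalization, background, source table, detection filter, probe rule and moderation, and left out each array.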

Additional observations from a re-analysis of the deposited data

Results flagged for a closer look

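In 4 genes named by the rule, the Ntg arrays moved one way and the LRRK2KO arrays the other between PBS and LPS. There was 1 array per group, so none of these differences was tested. Mmp12, macrophage elastase, went from 8.13 to 7.43 in Ntg and from 6.13 to 7.51 in LRRK2KO cells, a LRRK2KO response 2.08 above the Ntg response on the log2 scale. Ctla2b, a protease inhibitor gene, went from 7.27 to 7.01 and from 6.04 to 7.89, a difference of 2.10. Vcam1 went from 6.06 to 8.0 in Ntg cells and from 4.98 to a level not above background in LRRK2KO cells, and the difference of -2.28 rests on that level. Kif23 went from 6.93 to 7.01 and from 6.67 to 6.53, a difference of -0.22 that holds for the probe used. Opposite movement is common here, since it was found in 2128 of 8418 genes detected on at least 2 of the 4 arrays.

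Probes without a single gene symbol stayed out of the comparison. Of 2004 such probes detected on at least 2 arrays, limma called 191 (9.53%, beside 13.3% of the probes with 1 symbol), 88 higher and 103 lower, with changes reaching 3.44 and -3.30 on the log2 scale.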

How the results depend on the processing

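Without a genotype term, 712 genes were called (272 higher, 440 lower), all among the 1335. With each of the 6 arrays left out in turn, calls ranged from 319 to 1633 (138 to 680 higher, 181 to 953 lower). The lone array of an arm is then assumed to vary like the other groups, and leaving out a 6 h array equals fitting the 4 arrays alone. The other settings gave 1029 to 1659 calls, and the median change over all genes stayed between -0.08 and 0.01. None of the 1335 genes was called in the opposite direction under any alternative. Among genes named in the text, 5 uncalled changes turned sign with an array left out: Cd74 (-0.06 to 0.38), Kif23 (-0.21 to 0.15), Mmp12 (-0.83 to 1.51), Ctla2b (-0.24 to 1.82) and Vcam1 (-0.23 to 1.84). The negative values came without the Ntg LPS array for Cd74 and Vcam1 and without the LRRK2KO PBS array for Ctla2b and Mmp12, Mmp12 was also at -0.05 without the LRRK2KO LPS array, where Kif23 was at 0.15, and the cause was not tested. With the mean of a gene's detected probes Kif23 was at -1.84 (adjusted p = 0.00197). Without the detection filter, which tests 19057 genes, 28 named genes lost their call. Some genes that kept their call with each array left out lost it under another setting. Il18, Mrc1, Olfml3, Cx3cr1 and Ccl12 were among these, each called in 15 of 16 alternatives. Their highest limma adjusted p was 0.142, 0.167, 0.132, 0.0528 and 0.0522. Genes near background have only bounds. No paired analysis was possible because, as to replicate numbers, every array carries number 1. The arms are instead paired by genotype, which is a term of the fit, and the 4 arrays fitted alone with that term gave 1633 calls.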

Other observations

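Transporters outside the arginine pathway moved both ways, 4 higher and 6 lower of 25 carriers of amino acids, metals and nucleosides (6.54% and 8.99% of all genes). Slc15a3, a lysosomal peptide and histidine carrier, went from 12.41 and 12.53 with PBS to 13.94 and 13.69 with LPS, a rise of 1.35 ± 0.16 (SE, n = 2 arrays per arm). Of the metal importers, Slc39a14 rose by 1.38 ± 0.17, while Slc39a8 fell by 1.11 ± 0.17 on the log2 scale. The lysosomal carrier gene Slc46a3 went from 9.13 and 9.20 to 6.55 and 6.90, a change of -2.44 ± 0.17, and the amino acid transporter gene Slc43a2 changed by -1.40 ± 0.14. With the Ntg PBS, Ntg LPS, LRRK2KO PBS and LRRK2KO LPS array left out, 3, 2, 3 and 2 of the 4 rises and 2, 2, 2 and 3 of the 6 falls kept their call.

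Adenosine and adhesion genes gave a few further calls. Adora3, an adenosine receptor, went from 5.19 and 5.84 to 7.55 and 7.59, a rise of 2.06 ± 0.20 that was kept under every omission, and P2rx7, an ATP-gated channel, fell by 0.69 ± 0.16 on the log2 scale, kept under none. Of 20 adhesion and matrix genes 2 rose and 4 fell. The integrin chain gene Itgal rose by 1.13 ± 0.26, the tetraspanin gene Cd9 went from 11.32 and 11.07 to 9.47 and 9.80, a change of -1.56 ± 0.20, and Itgb5 fell by 1.21 ± 0.27 on the log2 scale (0, 0, 1 and 0 of the rises kept, and 1, 0, 4 and 1 of the falls). Cadm1, a cell adhesion molecule outside that list, went from 10.28 and 10.02 to 7.17 and 7.61, and Rasgrp3 and Arhgap19, regulators of small GTPases, fell at least 4.30-fold and 5.38-fold, all 3 kept under every omission. Of 8 clock genes only Dbp was called, at -1.47 ± 0.20, kept without either PBS array.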
